A study of Mus musculus with 15 samples.

Results

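Collagen chains are the secreted polypeptides that assemble in threes into the triple helices of the extracellular matrix, and the set described here holds every gene with a symbol of the form Col, number, a, number that the array's annotation names alone in a transcript cluster. The rule found 44 chains among 22180 measured genes, of which 11 belong to fibrillar collagens, 9 to basement membrane collagens and 24 to the other classes. Where a chain had more than 1 cluster, the cluster with the highest mean over all arrays stood for it. All 44 chains entered the tests with no filter on weak signals, and 34 of them had a mean above that of the median gene, 1.94 on the log2 scale.

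The RNA came from 15 lung nodules of female BALB/c mice (aged 4 to 5 weeks at inoculation) that had received D2.OR or D2.A1 cells through the tail vein, and each nodule was cut by laser microdissection from formalin-fixed, paraffin-embedded lung and hybridized to 1 Mouse Gene 2.0 ST array. D2.OR and D2.A1 are mouse mammary cancer lines of the D2 hyperplastic alveolar nodule series, the former known for dormancy in the lung and the latter for metastatic growth. Cells were injected straight from plastic (2D, unprimed) or after 3 to 5 days in 3D culture in Cultrex, itself a basement membrane extract (3D, primed). The groups were D2.OR 2D (2 nodules, numbered 2 and 3), D2.OR 3D (3 nodules), D2.A1 2D with spindle (3) or epithelial (3) morphology, and D2.A1 3D with spindle (2) or epithelial (2) morphology. All D2.OR nodules are labelled spindle, so a comparison of D2.OR with epithelial D2.A1 nodules carries morphology along with the cell line. Among D2.A1 nodules the study places the epithelioid ones in the parenchyma and the spindle ones at the pleura, so morphology and location cannot be told apart there. The study used 3 mice per group, so some D2.A1 nodules share a mouse that no label names, and p-values that treat the 6 D2.A1 2D or the 4 D2.A1 3D nodules as independent are too small for that reason. How shared mice bear on the comparisons of spindle nodules is not known. Tumor and host cells are both mouse cells here, and in such bulk samples more cells of a type and more RNA per cell cannot be told apart.

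Fibrillar collagens (types I, II, III, V, XI, XXIV and XXVII) form the banded fibrils of connective tissue, where types I and III make up most of the fibril and type V chains take part in starting it. Basement membrane collagens include the type IV network under epithelium and endothelium, types XV and XVIII, which lie in the basement membrane zone, and type VII, which anchors it. Of the remaining chains, type VI forms beaded filaments near cells, type VIII forms networks beside vessels, type XII binds to the surface of fibrils, type X belongs to hypertrophic cartilage, and types XIII, XVII, XXIII and XXV are transmembrane collagens. In the lung, fibroblasts are the main source of fibrillar and type VI chains, whereas epithelium and endothelium also make type IV chains.

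The RefSeq table of promoters (build GRCm38.p6) held an entry for 35 of the 44 chains. The 100 bases before the start given there are shown for 5 chains, 5′ to 3′ on the strand of the gene. These are among the 8 that stood highest together in primed D2.OR nodules 1 and 3. They are shown because chains of several chromosomes were high in the same nodules. Col6a2, another of the 8, has an entry but is not shown. The annotated gene bodies of Col5a3 and Col6a3 reach into their windows. Capitals mark matches to GGGCGG (the core of the GC box) or to the C-rich run CCCTCCC, on either strand.
Col1a2, chr6:4505518-4505617, + strand: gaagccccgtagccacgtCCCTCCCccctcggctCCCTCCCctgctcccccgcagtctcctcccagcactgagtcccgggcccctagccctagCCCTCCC
Col3a1, chr1:45311438-45311537, + strand: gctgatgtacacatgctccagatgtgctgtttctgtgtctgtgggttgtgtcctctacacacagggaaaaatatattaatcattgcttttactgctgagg
Col5a3, chr9:20815068-20815167, − strand: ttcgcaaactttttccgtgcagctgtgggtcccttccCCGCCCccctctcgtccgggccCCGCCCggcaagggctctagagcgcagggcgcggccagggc
Col6a1, chr10:76726045-76726144, − strand: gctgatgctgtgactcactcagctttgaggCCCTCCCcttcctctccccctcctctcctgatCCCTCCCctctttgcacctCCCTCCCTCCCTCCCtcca
Col6a3, chr1:90843972-90844071, − strand: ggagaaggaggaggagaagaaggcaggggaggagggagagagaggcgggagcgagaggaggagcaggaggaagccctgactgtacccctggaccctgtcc
Col1a2 and Col6a1 held 3 and 5 copies of CCCTCCC in these windows, Col5a3 held 2 of GGGCGG, and Col3a1 and Col6a3 held neither. Over the 250 bases before the start, searched on both strands with overlapping matches counted, CCCTCCC was present in 16 of 35 chains (45.7%) and in 19.7% of all 32851 promoters, and GGGCGG in 21 of 35 (60.0%) and in 32.7%. CCAAT was present in 12 of 35 chains (34.3%, against 33.8% of all promoters) and TATAAA in 5 of 35 (14.3%, against 12.4%). Each chain was counted at its outermost start alone, whereas the shares of all promoters count every entry, so the sets are not alike. These matches describe the letters of the windows and were not tested against expression.

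Across the 15 nodules the collagen chains were unequal in how much they varied. The range from the lowest to the highest nodule exceeded 2 on the log2 scale in 10 of 44 chains (22.7%), compared with 6.51% of all genes. By class these were 4 of 11 fibrillar, 2 of 9 basement membrane and 4 of 24 other chains. The widest ranges belonged to Col1a1 (4.78 to 9.54), Col6a3 (2.92 to 7.46), Col3a1 (3.57 to 8.04) and Col6a1 (5.00 to 9.23). The mean of the 11 fibrillar chains stood at 3.12 and 3.00 in unprimed D2.OR nodules, at 4.26, 3.33 and 4.62 in primed D2.OR nodules 1, 2 and 3, and at 3.33 to 3.72 in the D2.A1 nodules. The mean of the 9 basement membrane chains had a different order and was highest in the D2.A1 3D epithelial nodules, at 3.11 and 2.91, against 2.30 to 2.71 in all others.

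**Figure D1:**
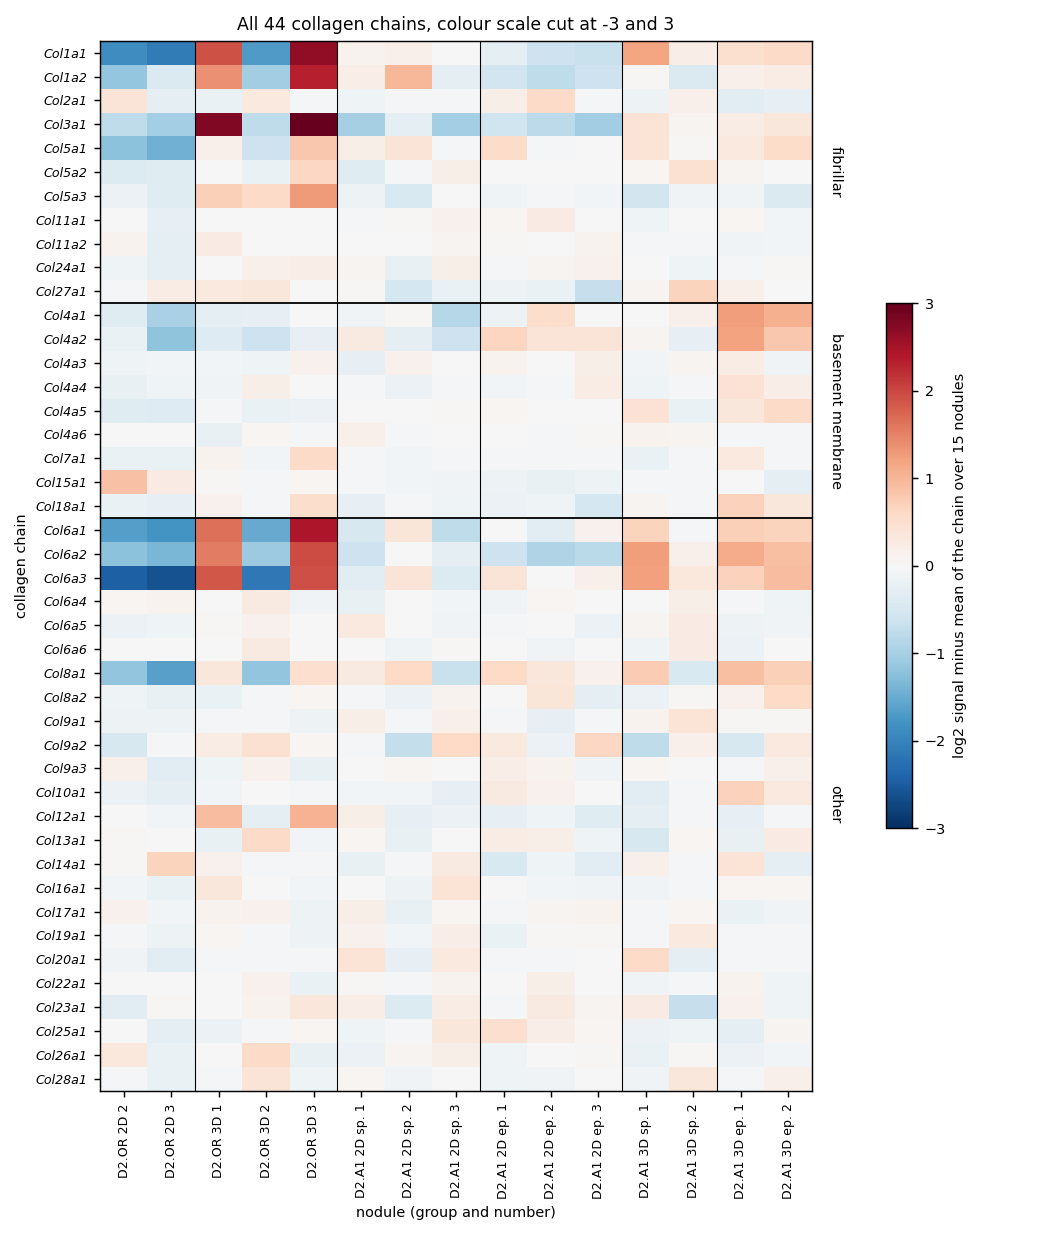
Deviation of each of the 44 chains (rows, ordered by class) from its own mean over the 15 nodules (columns, by group), in log2 units, with the colour scale cut at −3 and 3. Col1a1, Col1a2, Col3a1, Col6a1, Col6a2 and Col6a3 are high in D2.OR 3D nodules 1 and 3 and low in both D2.OR 2D nodules and in D2.OR 3D nodule 2, and Col4a1 and Col4a2 are highest in the D2.A1 3D epithelial nodules.

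D2.OR 3D nodule 2 stood apart from the other nodules of its group. The mean of 6 heart muscle genes was 5.65 in it and 1.99 to 2.76 in the other 14 nodules, and its array weight was 0.33, against 3.11 and 1.12 for nodules 1 and 3. The array weight comes from the spread of all genes about the group means, collagen chains included. It is therefore no separate ground for leaving the nodule out. The D2.OR 2D nodules held the highest means of the adipocyte list for nodule 2 (7.97, with 4.71 in nodule 3) and of the B cell (5.14) and T cell (4.90) lists for nodule 3, whereas these lists lay between 1.66 and 2.33 in D2.A1 nodules. In D2.OR 3D the adipocyte mean was 3.03 to 4.88 and the B cell mean 2.89 to 4.29. Of the epithelial markers, Epcam lay between 1.55 and 2.10 in every nodule, near the median gene, whereas Krt8 ran from 3.57 to 6.02, Krt18 from 3.11 to 6.18 and Cdh1 from 2.30 to 4.02. Counts of chains called are given with and without D2.OR 3D nodule 2 in each comparison that holds D2.OR nodules. The part that these other tissues have in the collagen values was not tested.

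The largest differences among the chains concerned the effect of priming on D2.OR nodules. Col1a1, which encodes the α1 chain of type I collagen, had values of 5.03 and 4.78 among unprimed D2.OR nodules, and of 8.80, 5.19 and 9.54 among primed D2.OR nodules 1, 2 and 3. Col1a2, its partner chain, was at 5.55 and 6.28 against 8.08, 5.66 and 9.03. Col3a1, the only chain of type III collagen, was at 3.85 and 3.59 against 7.38, 3.83 and 8.04. In each of these chains nodules 1 and 3 were far above the unprimed nodules, and nodule 2 lay within or just beside them.

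**Figure D2:**
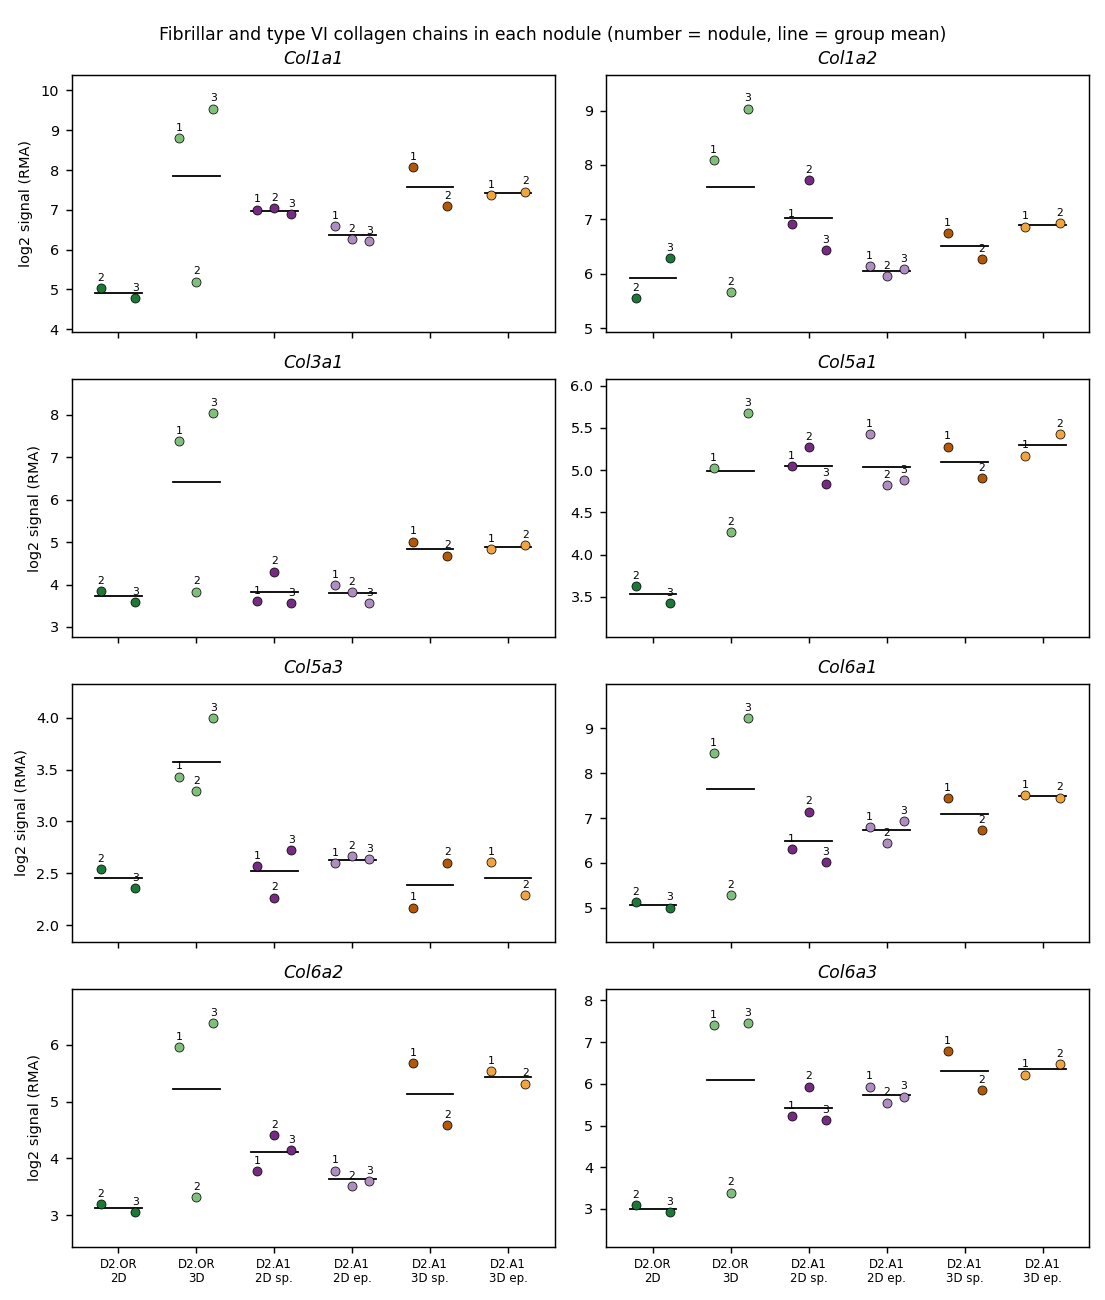
Log2 RMA signal (y axis, scaled separately for each chain) of 5 fibrillar and 3 type VI chains in each nodule, by group, with nodule numbers above the points and lines at group means. In D2.OR 3D, nodules 1 and 3 sit above nodule 2 in every panel (Col1a1 at 8.80 and 9.54 against 5.19), and only for Col5a3 does nodule 2 (3.29) also exceed all D2.OR 2D and D2.A1 nodules.

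With all arrays, the difference of the D2.OR 3D and 2D means was 2.94 for Col1a1 (SE 0.89, limma adjusted p = 0.27), 1.68 for Col1a2 (SE 0.71, adjusted p = 0.48) and 2.70 for Col3a1 (SE 0.86, adjusted p = 0.30), and none passed the threshold of an adjusted p of 0.05. The same held for all 44 chains, of which 0 were called higher (0.0721% of all genes were) and 0 lower (0.203%). At an unadjusted p of 0.05, 13 chains were higher and 1 lower, against 4.15% and 5.24% of all genes, and a one-way test per gene called 0 chains after adjustment. In all, 39 of 44 chains had a higher mean in primed nodules (88.6%, against 52.3% of all genes), with a median difference of 0.20 over the chains and 0.01 over all genes. The 3 primed nodules lay above the 2 unprimed nodules in 17 chains and below them in 1, against 10.7% and 8.76% of all genes. Where the limits were a change of 2-fold and the 0.05 level before adjustment, 9 chains were higher by limma (198 of all genes) and 1, Col5a3, by the one-way test (33 of all genes).

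Leaving out D2.OR 3D nodule 2 changed these calls. In the 14 remaining nodules, 10 of 44 chains passed as higher in D2.OR 3D than 2D and 0 as lower, compared with 1.73% and 0.388% of all genes. The differences were then 4.27 for Col1a1 (SE 0.29, adjusted p = 1.6e-05), 2.64 for Col1a2 (SE 0.39, adjusted p = 0.0039) and 3.99 for Col3a1 (SE 0.27, adjusted p = 1.5e-05). The remaining fibrillar chains called were Col5a1 (1.82, adjusted p = 0.0029) and Col5a3 (1.26, adjusted p = 0.0089). Because the nodule left out was also the main source of spread in these chains, the p-values of this fit describe the other nodules and not the group of 3.

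In the clusters that stood for them, type V chains differed from types I and III in where nodule 2 lay. Col5a3, which encodes the α3 chain of type V collagen, was at 2.54 and 2.36 in D2.OR 2D and at 3.43, 3.29 and 4.0 in D2.OR 3D, so all 3 primed nodules exceeded both unprimed nodules and every D2.A1 nodule (2.17 to 2.72). Its difference of 1.12 (SE 0.21) came nearest to the threshold in D2.OR (adjusted p = 0.055). Col5a1, the α1 chain of type V, was at 3.63 and 3.43 in D2.OR 2D and at 5.03, 4.26 and 5.67 in D2.OR 3D, with no overlap and a difference of 1.46 (SE 0.32, adjusted p = 0.11). The contrast did not hold in second clusters, examined after the data were seen. That of Col5a1 was at 2.55 and 2.52 in D2.OR 2D against 2.59, 2.43 and 2.80, with nodule 2 lowest. That of Col1a2 was at 3.72 and 3.80 against 5.21, 4.14 and 5.90, with nodule 2 above both unprimed nodules. The fibrillar chains of cartilage did not follow types I, III and V. Col2a1 and Col11a1 lay between 1.64 and 2.93 over all nodules, and the mean of 7 cartilage markers was 1.60 to 1.95.

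The type VI chains Col6a1, Col6a2 and Col6a3 were arranged much as type I. Col6a1 was at 5.13 and 5.00 in D2.OR 2D and at 8.44, 5.28 and 9.23 in D2.OR 3D. Col6a2 was at 3.20 and 3.05 against 5.95, 3.32 and 6.38, and Col6a3 at 3.08 and 2.92 against 7.41, 3.39 and 7.46. These 3 chains build the main type VI heterotrimer, and in all of them the primed nodules lay above the unprimed, nodule 2 by little. In a second cluster of Col6a1, examined after the data were seen, nodule 2 (4.86) lay between the unprimed nodules (5.08 and 4.70). Nodules 1 and 3 were at 7.28 and 7.96 in that cluster. The differences with all arrays were 2.59 for Col6a1 (SE 0.82, adjusted p = 0.30), 2.10 for Col6a2 (SE 0.66, adjusted p = 0.30) and 3.09 for Col6a3 (SE 0.90, adjusted p = 0.25). Without nodule 2 they were 3.77 (adjusted p = 0.00022), 3.04 (adjusted p = 0.00031) and 4.43 (adjusted p = 1.5e-05). The alternative chains Col6a4, Col6a5 and Col6a6 stayed between 1.48 and 2.27 in all nodules.

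Among the other chains, Col8a1, a network-forming chain of vessel walls, was at 3.04 and 2.58 in D2.OR 2D and at 4.54, 3.02 and 4.71 in D2.OR 3D. Col12a1, a fibril-associated chain, was at 2.22 and 2.14 against 3.16, 1.98 and 3.27, and at 1.87 to 2.41 in D2.A1. Both passed only without nodule 2 (Col8a1 1.82, adjusted p = 0.043, and Col12a1 1.03, adjusted p = 0.0044). Over all groups, nodules 1 and 3 of D2.OR 3D were above the other 13 nodules in 8 of 44 chains, Col1a1, Col1a2, Col3a1, Col5a3, Col6a1, Col6a2, Col6a3 and Col12a1, as they were in 3.09% of all genes. This pattern was chosen after the values were seen and carries no test.

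Of the 9 basement membrane chains 0 passed in D2.OR priming, with all arrays or without nodule 2, and 3 had an unadjusted p under 0.05 in the former fit. The mean was higher in primed nodules for 7 of the 9, and in 5 (Col4a1, Col4a4, Col4a5, Col7a1 and Col18a1) all primed nodules lay above both unprimed ones, as in 10.7% of all genes. With all arrays the differences were 0.48 for Col4a1, the α1 chain of type IV collagen (SE 0.27, adjusted p = 0.67), 0.41 for Col18a1, the chain that carries endostatin (SE 0.18, adjusted p = 0.48), and 0.40 for Col7a1, the chain of anchoring fibrils (SE 0.16, adjusted p = 0.45). Col15a1, the chain of type XV collagen, was the only chain whose primed nodules all lay below the unprimed, at 2.08, 1.99 and 2.11 against 2.91 and 2.30 (difference −0.55, SE 0.15, adjusted p = 0.22). Without D2.OR 2D nodule 3 this difference was −0.85 and passed (adjusted p = 0.0030), which rests it on the single unprimed nodule with 2.91, assumed to vary like the other groups. The means of the endothelial and pericyte lists were also highest in that nodule (3.80 and 3.39), and their part in the Col15a1 values was not tested.

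**Figure D3:**
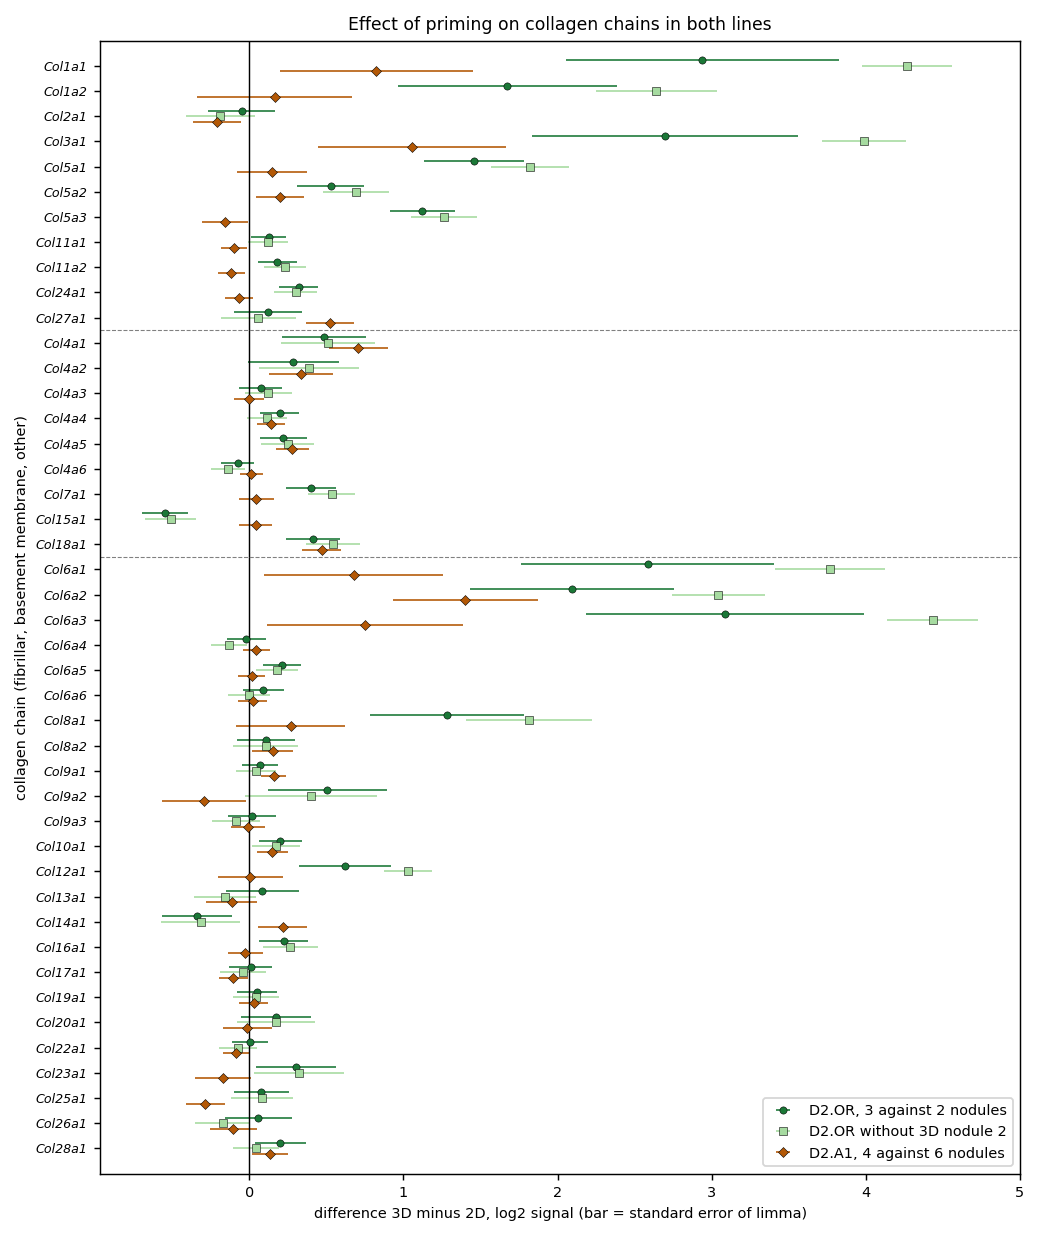
Difference of primed minus unprimed nodules (x axis, log2 signal, bars are standard errors of limma) for the 44 chains by class, for D2.OR with all arrays, for D2.OR without 3D nodule 2 and for D2.A1. The D2.OR differences of type I, III and VI chains are largest (Col6a3 at 3.09 with all arrays and 4.43 without nodule 2), and the D2.A1 differences of the same chains are smaller (Col6a3 at 0.75).

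Genes that process, bind or degrade collagen were read beside the chains from 7 lists of 57 measured genes. In D2.OR priming 0 of the 57 passed with all arrays (0.0721% of all genes were higher and 0.203% lower), and 15 were higher and 0 lower at an unadjusted p of 0.05 (4.15% and 5.24% of all genes). Without nodule 2, 15 passed as higher and 0 as lower, against 1.73% and 0.388% of all genes. The latter were the prolyl 4-hydroxylase subunits P4ha1 and P4hb, the collagen chaperone Serpinh1, the transcription factor Creb3l1, the procollagen C-proteinase Bmp1 and its enhancer Pcolce, the cross-linking enzyme Loxl3, the fibril partners Lum, Ogn, Sparc and Postn, the collagen receptors Ddr2 and Mrc2, and the metalloproteinases Mmp2 and Mmp14. Serpinh1 was at 3.81 and 3.25 in D2.OR 2D and at 5.38, 4.02 and 5.69 in D2.OR 3D. Mmp2, the gelatinase A, was at 3.13 and 2.55 against 6.08, 3.24 and 7.98. As for the fibrillar chains, nodules 1 and 3 were high and nodule 2 lay near the unprimed nodules. These genes outside the rule for naming were chosen after their values were seen.

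Markers of other cells differed between the same groups, and the means of the fibroblast and alveolar type II lists were above both unprimed nodules in all 3 primed ones, nodule 2 included. All 8 fibroblast markers had a higher mean in D2.OR 3D than 2D (52.3% of all genes), 6 of them at an unadjusted p of 0.05 (4.15% of all genes) and 1, Inmt, past the threshold (1.75, SE 0.22, adjusted p = 0.0085, with 0.0721% of all genes called higher). Without nodule 2, 5 of the 8 passed as higher (1.73% of all genes), Inmt, Pdgfra, Tcf21, Mfap4 and Mfap5. The mean of the list was 2.42 and 2.32 in D2.OR 2D, 3.42, 3.17 and 3.78 in D2.OR 3D and 2.42 to 2.81 in D2.A1. Pdgfra, the receptor that defines many fibroblasts, was at 2.62 and 2.94 against 4.78, 3.30 and 5.75, whereas Inmt was equally high in all primed nodules (4.72, 4.88 and 4.88, against 3.10 and 3.04). The mean of 6 alveolar type II markers was 2.58 and 2.36 against 5.96, 4.58 and 6.41, and that of 5 epithelial markers 2.56 and 2.60 against 3.89, 2.90 and 3.89.

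Some other markers were lower in primed D2.OR nodules. Rgs5, a pericyte gene, was at 6.13 and 5.12 in D2.OR 2D and at 3.42, 3.01 and 3.00 in D2.OR 3D (difference −2.48, SE 0.25, adjusted p = 0.0022). Pecam1 of endothelium fell by 1.04 (adjusted p = 0.032) and Cd3d of T cells by 1.78 (adjusted p = 0.041), and all 3 genes also passed without nodule 2. Among the other pericyte markers, Abcc9 was also lower (3.18 and 3.53 against 2.87, 2.55 and 2.52), and Cspg4, Notch3 and Kcnj8 overlapped. Pdgfrb went the other way in nodules 1 and 3 (2.94 and 3.04 against 5.10, 2.88 and 5.21). The mean of the pericyte list overlapped, at 3.39 and 3.05 against 3.07, 2.55 and 2.94. The mean of the endothelial list was 3.80 and 3.28 against 3.06, 2.79 and 3.21, and 0 of 5 adipocyte markers had a higher mean in primed nodules. Acta2, the actin of smooth muscle and myofibroblasts, was in contrast higher (1.82, adjusted p = 0.049). The mean of the 6 smooth muscle markers overlapped, at 2.80 and 2.74 against 2.77, 3.44 and 3.29. Of the others, Actg2 was higher in all primed nodules, and Des was lower (4.05 and 3.49 against 2.25, 3.44 and 3.00). Myh11 was high in nodule 2 alone (3.91), and Tagln and Cnn1 overlapped. The part of all these cells in the collagen values was not tested.

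In D2.A1 nodules priming gave no call among the chains. Of the 44 chains 0 were called higher (0.00451% of all genes) and 0 lower (0%), 5 were higher and 1 lower at an unadjusted p of 0.05 (3% and 2.33% of all genes), and the one-way test called 0. The 4 primed nodules lay above all 6 unprimed ones in 4 chains, Col1a1, Col3a1, Col6a2 and Col18a1, and below them in Col11a2, against 0.618% and 0.568% of all genes. Col3a1 was at 3.57 to 4.30 in the D2.A1 2D nodules and at 5.01 and 4.68 (spindle) and 4.83 and 4.94 (epithelial) in D2.A1 3D, a difference of 1.06 (SE 0.61, adjusted p = 0.98). Col6a2 was at 3.51 to 4.41 against 5.67, 4.58, 5.54 and 5.31 (difference 1.40, SE 0.47, adjusted p = 0.78). These groups did not overlap, yet none of these chains passed. D2.OR 3D nodule 2 is in neither group and enters only the common spread, and when it was left out the SE for Col6a2 was 0.20 and its adjusted p 0.093.

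Col1a1 rested at 6.22 to 7.04 in unprimed and at 7.08 to 8.07 in primed D2.A1 nodules (difference 0.82, SE 0.63, adjusted p = 0.99). Col18a1 was at 1.59 to 2.07 against 2.19, 2.08, 2.79 and 2.44 (difference 0.47, SE 0.12, adjusted p = 0.64). Col4a1 had the largest difference of its class at 0.71 (SE 0.19, adjusted p = 0.65), with the D2.A1 3D epithelial nodules at 6.42 and 6.23 and all other D2.A1 nodules at 4.30 to 5.69. P-values over D2.A1 nodules that share mice are too small in this comparison too, and it passed for no chain. Col6a3, at 5.13 to 5.94 against 5.85 to 6.78, overlapped (difference 0.75, SE 0.64, adjusted p = 1).

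The priming effects of the lines were set against each other by the difference of D2.A1 and D2.OR effects. Of the 44 chains 0 passed as higher (0.0586% of all genes) and 0 as lower (0.0361%), with 1 higher and 3 lower at an unadjusted p of 0.05 (4.54% and 3.64% of all genes) and 0 by the one-way test. The difference of effects was −1.28 for Col5a3 (SE 0.26, adjusted p = 0.13), −2.34 for Col6a3 (SE 1.10, adjusted p = 0.62), −2.12 for Col1a1 (SE 1.09, adjusted p = 0.64) and 0.59 for Col15a1 (SE 0.18, adjusted p = 0.39). Col6a1 (−1.91), Col3a1 (−1.64) and, among basement membrane chains, Col7a1 (−0.35) did not pass either. When D2.OR 3D nodule 2 was left out, 8 chains passed, all with a smaller effect in D2.A1 (0.987% of all genes were lower), among them Col1a1 at −3.44 (SE 0.35, adjusted p = 0.00056), Col3a1 at −2.93 (SE 0.32, adjusted p = 0.00088) and Col6a3 at −3.68 (SE 0.35, adjusted p = 0.00041). The other 5 were Col1a2, Col5a1, Col5a3, Col6a1 and Col12a1. Whether the effects on these 8 chains passed as different between the lines thus depended on 1 nodule.

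Between unprimed nodules of the lines, 1 chain was higher and 1 lower in D2.A1 than in D2.OR, against 0.996% and 3.2% of all genes. Col5a1 was higher, at 4.82 to 5.43 in the 6 D2.A1 2D nodules and at 3.63 and 3.43 in D2.OR 2D (difference 1.52, SE 0.29, adjusted p = 0.011). Without D2.OR 2D nodule 3 its adjusted p was 0.074, and a second, weaker transcript cluster of Col5a1, examined after the data were seen, had a difference of 0.13 (adjusted p = 0.83). Col15a1 was lower, at 1.81 to 1.98 in D2.A1 2D against 2.91 and 2.30 (difference −0.70, SE 0.13, adjusted p = 0.012), and without D2.OR 2D nodule 2 its difference was −0.39 (adjusted p = 0.12). In both cases the lone D2.OR 2D nodule was assumed to vary like the other groups. The D2.A1 values of Col15a1 lay near that of the median gene (1.94), where these data have no detection call. Neither chain passed the one-way test (adjusted p = 0.087 for Col5a1 and 0.20 for Col15a1), which called 2 other chains as higher. These p-values over nodules of shared mice are too small.

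Several chains were apart between the unprimed groups without passing. The D2.A1 2D nodules lay above both D2.OR 2D nodules in 8 chains and below them in 1, against 8.91% and 8.48% of all genes. Col6a3 was at 5.13 to 5.94 in D2.A1 2D and at 3.08 and 2.92 in D2.OR 2D (difference 2.58, SE 0.81, adjusted p = 0.11), Col8a1 at 3.54 to 4.82 against 3.04 and 2.58 (1.61, SE 0.45, adjusted p = 0.068), and Col1a1 at 6.22 to 7.04 against 5.03 and 4.78 (1.76, SE 0.79, adjusted p = 0.30). Col4a2 differed by 0.84 (SE 0.26, adjusted p = 0.11) with overlap. Without D2.OR 3D nodule 2, a nodule of neither group that entered only the common spread, 5 chains passed as higher (1.81% of all genes), namely Col1a1, Col5a1, Col6a1, Col6a3 and Col8a1, and Col15a1 as lower (4.12%).

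Between primed nodules the only call was Col5a3, lower in D2.A1 3D (2.17, 2.60, 2.61 and 2.29) than in D2.OR 3D (3.43, 3.29 and 4.0) by a difference of −1.15 (SE 0.18, adjusted p = 0.014), with 0.252% of all genes lower and 0.194% higher. The call was lost without D2.A1 3D spindle nodule 1 or without D2.A1 3D epithelial nodule 2, with a highest adjusted p of 0.075, as well as by the one-way test (adjusted p = 0.53), by limma on the compared groups alone (adjusted p = 0.12) and with same-numbered nodules averaged (adjusted p = 0.10). Col3a1 differed by −1.55 (SE 0.72, adjusted p = 0.49), Col12a1 by −0.72 (SE 0.25, adjusted p = 0.30), and Col4a2 by 0.89 (SE 0.25, adjusted p = 0.18), with all 4 D2.A1 nodules (3.39 to 4.85) just above the 3 D2.OR nodules (3.00 to 3.39). Col4a1 (0.80, adjusted p = 0.19) and Col8a1 (0.60, adjusted p = 0.71) did not pass either. Groups without overlap were found for 2 chains higher in D2.A1 (Col4a2 and Col9a1) and 2 lower (Col5a3 and Col11a2), against 3.78% and 4.68% of all genes. Without D2.OR 3D nodule 2, 7 chains passed as lower in D2.A1 (2.08% of all genes), Col1a1, Col1a2, Col3a1, Col5a3, Col6a1, Col6a3 and Col12a1, with Col3a1 at −2.84 (SE 0.23, adjusted p = 7.9e-05). The p-values are too small here for the shared mice.

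Over both cultures, 4 chains were higher in D2.A1 than in D2.OR and 2 lower, against 1.52% and 3.67% of all genes, and 3 of the 4 were type IV chains. Col4a2, the partner of Col4a1 in the main type IV heterotrimer, was at 3.00 to 4.85 in D2.A1 and at 2.42 to 3.43 in D2.OR (difference 0.86, SE 0.18, adjusted p = 0.016). Col4a1 was at 4.30 to 6.42 against 4.18 to 5.15 (0.69, SE 0.17, adjusted p = 0.032), and Col4a5, on the X chromosome, at 2.25 to 3.03 against 2.07 to 2.38 (0.41, SE 0.09, adjusted p = 0.024). Each of these differences was smaller than the range within D2.A1, the groups overlap in all 3, and 0 of the 44 chains were without overlap in this comparison (0.523% of all genes were higher and 1.17% lower without overlap).

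Of these 6 calls the one-way test kept 0 (lowest adjusted p 0.055), and averaging nodules of one number left 1, Col4a5 (adjusted p = 0.019). The type IV calls were unequal in how they held when single nodules were left out. Col4a2 lost its call only without D2.OR 2D nodule 3 (adjusted p = 0.070), and Col4a5 without D2.A1 3D epithelial nodule 2, either D2.OR 2D nodule or D2.OR 3D nodule 3 (highest adjusted p 0.069). Col4a1 lost it in 7 of 15 cases, without D2.A1 2D spindle nodule 1, any of the 4 D2.A1 3D nodules, D2.OR 2D nodule 3 or D2.OR 3D nodule 1 (differences 0.54 to 0.84, highest adjusted p 0.16). The call of Col4a1 was also lost with cyclic loess (adjusted p = 0.069), the trended robust prior (0.096), all clusters (0.053) and the replicate block (0.053). Col4a1 and Col4a2 lie head to head on chromosome 8, with gene bodies that overlap by 85 bases. Col4a5 and Col4a6 lie in the same way on the X chromosome, 1274 bases apart. Col4a6, in contrast to Col4a5, stayed between 1.61 and 1.98 in all nodules.

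Also higher over both cultures was Col5a1 (0.86, SE 0.20, adjusted p = 0.025), which lost its call without D2.A1 3D spindle nodule 1, D2.A1 3D epithelial nodule 2, D2.OR 2D nodule 3 or D2.OR 3D nodule 1 (highest adjusted p 0.085) and had a difference of 0.17 (adjusted p = 0.57) in its weaker cluster. Col6a3 (1.41, adjusted p = 0.19) and Col8a1 (1.11, adjusted p = 0.061) had larger differences that did not pass. Lower were Col15a1 (−0.40, adjusted p = 0.025) and Col5a3 (−0.51, SE 0.13, adjusted p = 0.038). The comparison averages both cultures, and for these fibrillar chains and Col15a1 the cultures were unlike. Between unprimed lines the differences were 1.52 for Col5a1, −0.70 for Col15a1 and 0.12 for Col5a3 (adjusted p = 0.84 for the last). Between primed lines they were 0.21 (adjusted p = 0.86), −0.11 (adjusted p = 0.84) and −1.15. Col15a1 lost its call in 5 of 15 cases, without D2.A1 3D spindle nodule 1, D2.A1 3D epithelial nodule 2, D2.OR 2D nodule 2 or D2.OR 3D nodules 1 or 3 (highest adjusted p 0.081). Col5a3 lost it in 11 of 15, and held it only without D2.A1 2D spindle nodule 3, D2.A1 3D spindle nodule 2, D2.A1 3D epithelial nodule 1 or D2.OR 3D nodule 2 (highest adjusted p 0.12). Without D2.OR 3D nodule 2 the calls over both cultures were 5 higher (1.71% of all genes), the same 4 with Col6a3 added, and 4 lower (6.17%), the same 2 with Col3a1 and Col12a1 added. Nodules of shared mice make these p-values too small.

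**Figure D4:**
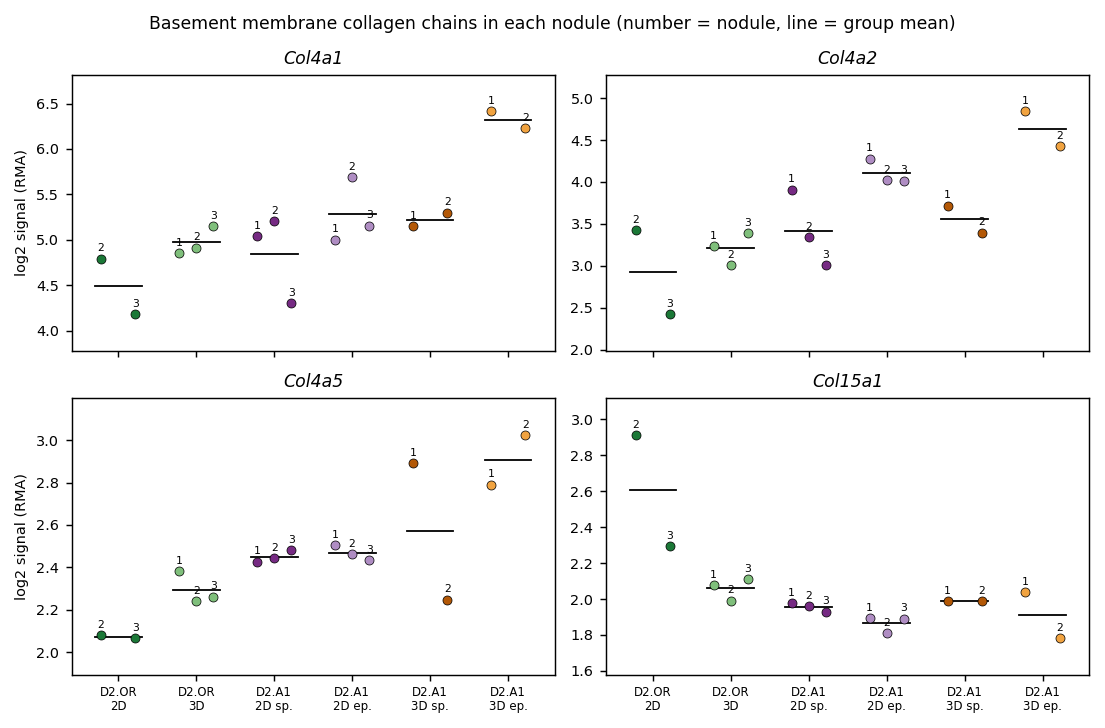
Log2 RMA signal (y axis, scaled separately for each chain) of Col4a1, Col4a2, Col4a5 and Col15a1 in each nodule, by group, with nodule numbers above the points and lines at group means. The D2.A1 3D epithelial nodules are highest for Col4a1 (6.42 and 6.23) and Col4a2 (4.85 and 4.43), and the D2.OR 2D nodules are highest for Col15a1 (2.91 and 2.30).

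Spindle nodules of D2.A1 against the D2.OR nodules, all of 1 labelled morphology, gave 0 chains higher (1.09% of all genes) and 0 lower (3.12%), with 4 higher and 2 lower at an unadjusted p of 0.05 (6.84% and 11.1% of all genes) and 0 by the one-way test. Col5a1 differed by 0.81 (SE 0.23, adjusted p = 0.070), Col5a3 by −0.56 (SE 0.15, adjusted p = 0.058), Col15a1 by −0.36 (SE 0.11, adjusted p = 0.084) and Col4a2 by 0.42 (SE 0.21, adjusted p = 0.32). The larger differences of Col6a3 (1.33, adjusted p = 0.30), Col1a1 (0.90, adjusted p = 0.50) and Col8a1 (0.87, adjusted p = 0.22) did not pass. Col15a1 was the only chain without overlap, lower in D2.A1 (2.75% of all genes were lower and 1.54% higher without overlap). Its groups nearly met, since the highest spindle D2.A1 value was 1.9895 and the lowest D2.OR value 1.9918. Both lay near that of the median gene (1.94). Without D2.OR 3D nodule 2, Col5a1 passed as higher and Col3a1, Col5a3 and Col12a1 as lower (1.5% and 6.04% of all genes). The type IV chains that were called over both morphologies were thus not called here.

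Within D2.A1, morphology gave 0 calls among the chains and among all genes (0% in each direction), with 2 chains higher and 4 lower in spindle nodules at an unadjusted p of 0.05 (3.45% and 4.36% of all genes) and 0 by the one-way test. Col4a2 was at 3.91, 3.34 and 3.00 (2D) and 3.72 and 3.39 (3D) in spindle nodules and at 4.28, 4.03 and 4.02 and 4.85 and 4.43 in epithelial nodules, with no overlap and a difference of −0.88 (SE 0.21, adjusted p = 0.24). Col4a1 differed by −0.77 (SE 0.19, adjusted p = 0.29) with overlap, and Col10a1, the type X chain, by −0.47 (SE 0.10, adjusted p = 0.18) without it. The largest differences of fibrillar chains between morphologies did not pass, Col1a1 by 0.39 (adjusted p = 0.93) and Col1a2 by 0.29 (adjusted p = 0.94), and Col8a1 by −0.48 (adjusted p = 0.79). Col4a2 and Col10a1 were the only chains without overlap, both lower in spindle nodules (0.807% of all genes were lower and 0.577% higher without overlap). The mean of 6 endothelial markers was 2.39 to 2.64 in spindle and 2.83 to 3.14 in epithelial nodules of D2.A1, and Cdh5, which defines endothelium, differed by −1.25 (SE 0.26, adjusted p = 0.18). The part of these cells in the type IV values was not tested.

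Genes of the collagen lists differed between the lines beside the chains. Of the 57 measured, 2 were higher and 3 lower over both cultures (1.52% and 3.67% of all genes), and without D2.OR 3D nodule 2 these were 2 and 9 (1.71% and 6.17%). Dcn, the fibril-binding proteoglycan decorin, was at 1.81 to 3.38 in D2.A1 and at 6.12, 5.48, 4.85, 6.20 and 5.53 in D2.OR (difference −3.04, SE 0.21), and Dpt, dermatopontin, at 1.62 to 2.16 against 3.06 to 3.57 (−1.43, SE 0.08). The groups did not overlap for either gene, and D2.OR 3D nodule 2 (6.20 and 3.57) stood with its line. The integrin subunit Itgb1, part of the collagen receptors, was higher in D2.A1 (1.00, SE 0.23, adjusted p = 0.028), as was Pcolce (1.45, SE 0.31, adjusted p = 0.019). Pcolce was at 5.88 to 6.61 in D2.A1, at 3.55 and 4.31 in D2.OR 2D and at 6.38, 4.21 and 6.28 in D2.OR 3D. Between primed lines without D2.OR 3D nodule 2, its difference was −0.15 (adjusted p = 0.86). Itga1, a collagen-binding integrin subunit, was lower (−0.43, SE 0.10, adjusted p = 0.034). Without D2.OR 3D nodule 2 the differences were −2.87 for Dcn, −1.39 for Dpt, 0.76 for Itgb1, 1.09 for Pcolce and −0.45 for Itga1, and all 5 passed. Between unprimed lines 2 of the 57 were higher (Pcolce and the prolyl 3-hydroxylase P3h3) and 3 lower (Dcn, Dpt and Itga1), against 0.996% and 3.2% of all genes. Between primed lines 0 were higher and 2 lower (Dcn and Dpt), against 0.194% and 0.252%. Without nodule 2 the counts were 7 and 3 between unprimed lines (1.81% and 4.12% of all genes) and 0 and 10 between primed lines (0.289% and 2.08%). The decorin level of the nodules was thus high where the fibrillar chains were low (D2.OR 2D) and where they were high (D2.OR 3D nodules 1 and 3).

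The remaining chains gave no call with all arrays. In none of the 8 comparisons did a chain pass among Col2a1, Col5a2, Col7a1, Col11a1, Col11a2, Col24a1 and Col27a1, the type IV chains Col4a3, Col4a4 and Col4a6, Col18a1, or any of the 24 chains of the other classes. A range over 1 between the lowest and the highest nodule was found in 21 of all 44 chains (47.7%), against 27.7% of all genes. The chains near the signal of the median gene have no detection call in these data, so their small differences are uncertain.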

How the data were processed

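The authors deposited 1 log2 value per transcript cluster and nodule, normalized by RMA. The submitters' processing notes name Affymetrix Expression Console and the Transcriptome Analysis Console, with versions not given in the sources used here. RMA gives the arrays a common distribution, so shifts of most genes at once cannot be seen, and small signals differ by less than their RNA does. The table holds 41345 clusters, of which 23521 have 1 gene symbol, and array medians run from 1.81 to 1.91. The number of arrays limits the precision.

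limma 3.58.1 (R 4.3.3) fitted the 6 group means to all 15 arrays (residual df 9, prior df 3.20), with Benjamini-Hochberg adjustment over 22180 genes in each of 8 comparisons, at a threshold of 0.05, and both D2.A1 morphologies weighted equally. The fit was tested on simulated data. The labels do not say that nodules came from separate mice, so p-values measure the spread between nodules. Named were chains past the threshold, 6 fixed chains and the 2 largest differences of each class per comparison, and of the lists the 4 largest past it. The members and lists were chosen with earlier results of these data known. Alternatives were all clusters, genes above the median gene, array weights, a trended robust prior, cyclic loess, fits restricted to the compared groups, a one-way test per gene, the replicate number as a block, averages of same-numbered nodules, and leaving out each array. Promoters came from RefSeq (GRCm38.p6).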

Additional observations from a re-analysis of the deposited data

How the results depend on the processing

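The counts of chains called moved with the processing. With array weights 7 chains were called for D2.OR 3D against 2D, 4 between unprimed lines, 5 between primed lines and 3 for spindle D2.A1 against D2.OR. Cyclic loess gave 2, 4, 1 and 3 for these comparisons and 1 for the priming difference. Genes above the median gene alone gave 1 for D2.OR priming and 2 for spindle D2.A1 against D2.OR, and the trend and robust prior gave 1 for D2.OR priming. A fit of only the groups compared gave 5 between unprimed and 0 between primed lines. The one-way test gave 0 between primed lines and 0 over both cultures. Averaging nodules of one number gave 0, 0 and 1 between unprimed lines, between primed lines and over both cultures, and for spindle D2.A1 against D2.OR it was not run, since it could not be fitted. The cause of these shifts was not tested. Leaving out 1 nodule gave 0 to 10 calls for D2.OR priming, 0 to 0 for D2.A1 priming, 0 to 8 for the priming difference, 1 to 6 between unprimed lines, 0 to 7 between primed lines, 1 to 9 over both cultures, 0 to 4 for spindle D2.A1 against D2.OR and 0 to 0 for morphology.

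Same-numbered nodules of different groups did not deviate together on average (mean correlation of deviations −0.02 over 31 pairs, 8 of them over 0.1). Among these pairs, only spindle and epithelial D2.A1 nodules of the same culture could share a mouse. Their correlations ran from −0.09 to 0.17. Deviations from a mean of so few nodules are tied to each other, so whether the numbers mark shared mice cannot be decided. With the replicate number as a block 2 chains were called between unprimed lines, 0 between primed lines, 2 over both cultures and 0 elsewhere.

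Signs turned only for differences that were not called with all arrays. Col1a2 in spindle D2.A1 against D2.OR (0.01) became −0.25 with array weights and −0.14 in its other cluster, which was examined after seeing the data. Col3a1 between morphologies became 0.23 with cyclic loess, and Col4a2 in the priming difference −0.064 with array weights. With 1 nodule left out, the differences that turned ranged from −1.68 to 0.50 for Col1a1 between primed lines, −0.62 to 0.23 and −0.47 to 0.37 for Col1a2 over both cultures and in spindle nodules against D2.OR, −0.041 to 0.22 for Col3a1 between unprimed lines and −0.12 to 0.082 between morphologies, −0.084 to 0.53 and −0.46 to 0.55 for Col4a1 and Col4a2 in the priming difference, −0.22 to 0.79 for Col4a2 in D2.OR priming, and −1.55 to 0.42, −0.0025 to 0.98 and −0.16 to 0.83 for Col6a1 between primed lines, over both cultures and in spindle nodules against D2.OR.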
